A study of Mus musculus with 18 samples.

Results

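Genes that define a macrophage, equip it to engulf particles and stock its lysosomes were followed across 18 Affymetrix arrays. The set holds 37 named genes, chosen by symbol: 36 of them had at least 1 probe set that the platform annotation gives that symbol alone, and Cd63 had none. These 36 genes had 71 probe sets, of 45101 on the array, and 69 of the 71 passed the filter on dim probe sets and were tested among 27110. The 2 that did not pass were further probe sets of Fcgr2b and Axl, genes with other tested probe sets. Where a gene had several, the brightest (highest mean log2 signal over the arrays) stands for it unless another is named. All 36 brightest probe sets were tested, and each was at or above its array's median signal on all 18 arrays.

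The cells were macrophages grown for 7 days from bone marrow of IL-10-/- mice, in DMEM with 10% fetal bovine serum and L-cell conditioned medium as the source of CSF-1, the growth factor macrophages need. For 10, 20 or 30 min they then received 100 ng/ml of LPS, a bacterial product sensed by Toll-like receptor 4, or LPS plus 10 ng/ml of IL-10, the anti-inflammatory cytokine these mice lack, in medium without CSF-1. All 6 groups share the IL-10-/- genotype, LPS and the removal of CSF-1. Every group held 3 arrays, 1 from each of 3 complete experiments done one after another, with age- and sex-matched mice. They are called experiments 1, 2 and 3 by their replicate number, and each supplied 6 arrays. The labels put mature macrophages at over 95% of the viable cells. Untreated cells were not analysed here, so no value is a response to LPS as such, and the labels do not say how many animals went into an experiment.

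A macrophage is built from a bone-marrow progenitor under CSF-1, whose receptor Csf1r and the transcription factor PU.1 (gene Spi1) set up the lineage. The finished cell binds antibody-coated, complement-coated or dying targets through Fc, integrin, scavenger and phosphatidylserine receptors, draws them into a phagosome and fuses that with lysosomes, where cathepsins and other acid hydrolases digest the load. Many of these genes are used as markers of macrophages as against monocytes, dendritic cells or granulocytes.

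Promoters of some members are shown first. C1qb and C1qc lie next to each other and differed together between experiments. Fcgr2b and Fcgr1 differed in opposite ways between experiments 3 and 1 by their brightest probe sets. Lamp1 was taken for its lysosomal gene motif. Other members with an entry, among them Apoe and Mertk, are not printed. Each printed promoter is the 250 bases before the RefSeq transcript start, 5′ to 3′ on the gene's strand, in build GRCm38.p6, outside the transcript. Of the 37 members 26 had an entry in the RefSeq promoter table used. Capitals mark GAGGAAGT, a core bound by PU.1 and related ETS factors, or CACGTG, the E-box core of the motif read by the lysosomal regulator TFEB, on either strand.
C1qb promoter, minus strand, chr4:136886201-136886450: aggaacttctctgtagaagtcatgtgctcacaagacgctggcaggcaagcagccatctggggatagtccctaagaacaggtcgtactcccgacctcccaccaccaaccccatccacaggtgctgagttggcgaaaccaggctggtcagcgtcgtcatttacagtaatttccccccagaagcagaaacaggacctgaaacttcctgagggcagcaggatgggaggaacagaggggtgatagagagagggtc
C1qc promoter, minus strand, chr4:136892915-136893164: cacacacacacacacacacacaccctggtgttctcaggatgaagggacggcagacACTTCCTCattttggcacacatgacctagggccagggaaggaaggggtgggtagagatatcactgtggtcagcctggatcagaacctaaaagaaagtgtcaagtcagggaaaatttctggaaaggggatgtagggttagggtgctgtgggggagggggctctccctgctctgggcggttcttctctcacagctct
Fcgr2b promoter, minus strand, chr1:170976072-170976321: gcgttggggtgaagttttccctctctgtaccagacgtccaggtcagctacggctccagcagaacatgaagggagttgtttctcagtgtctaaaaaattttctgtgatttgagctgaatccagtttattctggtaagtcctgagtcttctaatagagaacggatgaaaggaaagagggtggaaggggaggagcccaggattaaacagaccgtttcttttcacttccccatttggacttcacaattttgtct
Fcgr1 promoter, minus strand, chr3:96293970-96294219: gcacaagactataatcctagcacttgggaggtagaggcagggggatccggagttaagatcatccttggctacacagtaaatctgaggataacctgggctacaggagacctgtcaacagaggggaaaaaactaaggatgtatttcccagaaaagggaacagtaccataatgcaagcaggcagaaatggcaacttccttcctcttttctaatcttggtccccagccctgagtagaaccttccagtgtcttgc
Lamp1 promoter, plus strand, chr8:13158911-13159160: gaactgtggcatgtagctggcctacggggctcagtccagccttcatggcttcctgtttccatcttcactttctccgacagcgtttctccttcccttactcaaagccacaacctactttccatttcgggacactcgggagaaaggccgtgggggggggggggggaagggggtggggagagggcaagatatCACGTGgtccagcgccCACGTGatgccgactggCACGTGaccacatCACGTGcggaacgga

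Among the 26 members GAGGAAGT stood only in the C1qc window, as its reverse complement with the first base 195 bases before the start. In all promoters of the table, the same 250 bases held it in 2.79% of 27025 genes. The E-box core CACGTG was in 4 of 26 members (15.4%), Lamp1, Ctsd, Ctsl and Lgmn, against 6.86% of all genes. Those 4 were among the 11 lysosomal members with a window, and 0 of the 15 others held it. Lamp1 had the core at 4 places, 61, 45, 28 and 15 bases before the start. The longer palindrome TCACGTGA, which contains CACGTG, was found in Ctsd alone of the members and in 0.907% of all genes. These matches describe letters in a window, not binding.

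The deposited signals were scaled alike, with a trimmed mean of 500.003 to 500.004 on every array, and the precision is limited by 3 arrays per group. The LPS arrays at 20 min of experiments 2 and 3 stood apart, with lower quartiles of signal of 38.6 and 34, against 21.8 to 31 elsewhere. Il10, the targeted gene, gave signals of 602 to 3209 (median 1105) on the 18 arrays. With no wild-type array analysed here, and the probes' place relative to the disruption not given in the sources used here, this checks nothing. No 2 arrays were copies of each other: the closest of 153 pairs shared the value of 104 probe sets.

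On all 18 arrays Adgre1, Csf1r, Cd68, Itgam and the other members with a probe set were at or above the array median. The members were chosen as macrophage genes, and many markers of other cells also passed the filter, so this does not test the label of macrophages. Mean signals of the brightest probe sets ran from 399 (Axl) to 35083 (Ctsb), and 15 of 36 lay above 20000. The levels of different probe sets cannot be ranked against each other, since each has its own response, so every comparison here is within a probe set. Of 51 marker genes of other cells with a probe set, 33 passed the filter, among them all 10 granulocyte, 6 of 7 stromal and both monocyte genes, and 12 were below the array median on all 18 arrays. Those 12 were the T cell genes Cd3d, Cd3g and Cd4, the erythroid genes Alas2 and Slc4a1, the stromal gene Lum, the dendritic gene Ccr7, the osteoclast genes Calcr and Ocstamp and the mast cell genes Cpa3, Mcpt4 and Fcer1a. In a bulk culture, fewer cells of a type and less RNA per cell cannot be told apart.

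No member passed the test for IL-10 or for time, while 25 of 36 (69.4%) passed in at least 1 comparison of experiments, against 56.6% of all tested probe sets. Past 1 on the log2 scale were 5 members in experiment 2 against 1 (Fcgr1, Mertk, Apoe, C1qa and C1qc), 4 in experiment 3 against 1 (Adgre1, Fcgr2b, C1qa and C1qc) and 2 in experiment 3 against 2 (Fcgr1 and Apoe). These are 13.9%, 11.1% and 5.56% of the members, beside 6.81%, 10.1% and 3.81% of all tested probe sets. Of the variance of log2 signal over the 18 arrays, the experiment took a median of 52.2% over the 36 members, time 7.12% and treatment 0.59%, with 30.1% left over after experiment and group. Over all 27110 tested probe sets the experiment's median share was 37.9%, with 7.00% for time, 1.36% for treatment and 35.9% left over. The experiment's share ranged from 0.0609% for Lyz2 to 97.6% for C1qa.

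**Figure D1:**
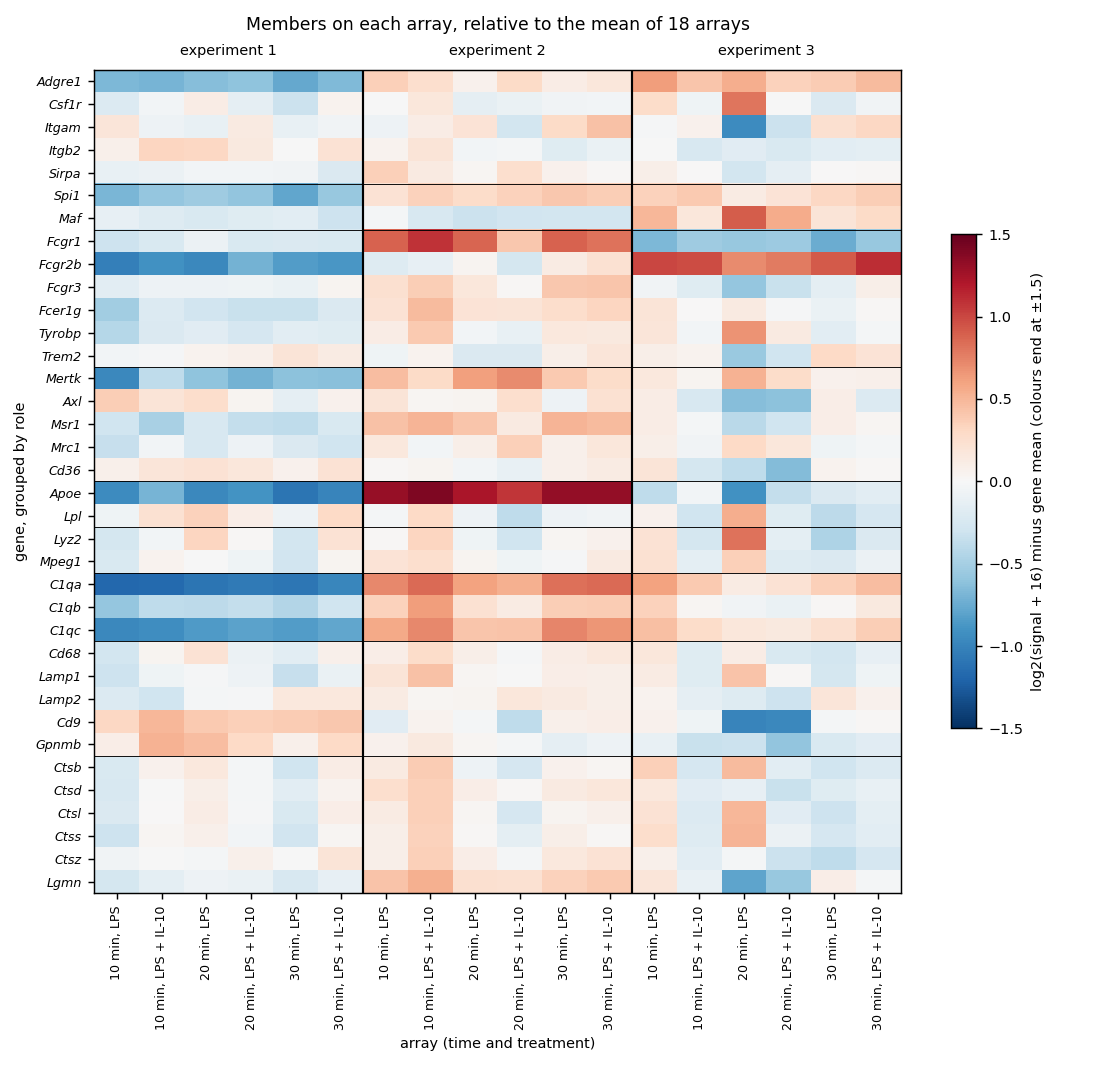
Each row is a member gene (brightest probe set), grouped by role, and each column 1 of the 18 arrays, ordered by experiment, time and treatment. Colour is log2(signal + 16) minus the gene's mean over the 18 arrays, ending at ±1.5. The blocks of 1 colour under a single experiment, as for C1qa, C1qc, Apoe, Spi1, Adgre1 and Fcgr2b, show the experiment as the larger source of difference, while Lyz2, with 0.0609% of its variance between experiments, has no such block.

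Whether IL-10 changed the macrophage programme within 30 min of LPS was asked at each time. Of 36 members 0 passed limma's threshold (adjusted p under 0.05, moderated linear model on log2(signal + 16), 3 arrays per group) at 10, 20 or 30 min or averaged over the times. In the same order, 0%, 0.00738%, 0.0111% and 0.0111% of the 27110 tested probe sets passed. With the experiment as a block, which takes its differences out of the spread, 0 members passed again, with 0%, 0.0184%, 0.0443% and 0.0332% of tested probe sets called. At an unadjusted p under 0.05 there were 0, 2, 0 and 0 members without the block, and 0, 3, 0 and 0 with it. At 20 min this is 5.56% and 8.33% of the members, beside 3.01% and 7.81% of all tested probe sets.

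Averaged over the times, the members' IL-10 differences lay between -0.10 (Maf) and 0.15 (Apoe) on the log2 scale, with a median of -0.01, the same as the median over all tested probe sets. The median absolute difference was 0.04 over the members and 0.08 over all tested probe sets. With the block, the 95% interval of the averaged difference stayed within 0.5 of 0 for 36 of 36 members, and without it for 28. The interval for Apoe, the widest departure, ran from -0.02 to 0.31 with the block. An effect of IL-10 of 0.5 or more on the log2 scale, averaged over 10 to 30 min, thus lay outside every member's blocked interval. This bounds the average only, in which opposite differences at single times can cancel. At 10, 20 and 30 min the blocked intervals stayed within 0.5 of 0 for 34, 25 and 30 of 36 members. Without the block they did so for 16, 8 and 9.

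At 20 min the largest differences with IL-10 were those of the lysozyme and lipase genes, both lower and neither called. Lyz2, which encodes the lysozyme of myeloid cells, had signals of 41182, 31271 and 57749.7 with LPS in experiments 1, 2 and 3, and of 33259, 26589 and 29707 with IL-10 added. Every experiment had the lower value with IL-10, although the groups overlapped, and the difference was -0.50 (SE 0.22, adjusted p = 1) by limma. Without the 2 LPS arrays that stood apart, the Lyz2 difference was -0.47 in the fit without the block. That leaves 1 LPS array at 20 min, from experiment 1, and takes its spread from the other groups. This array is then set against the IL-10 arrays of all 3 experiments, so the value is not paired by experiment. The Lyz2 difference was -0.27 without experiment 3, and it was -0.10 after quantile normalization. Lpl, the lipoprotein lipase gene, differed by -0.42 (SE 0.20, adjusted p = 1), also lower in 3 of 3 experiments, and by -0.05 after quantile normalization. At 30 min, 31 of 36 members were above 0, with a median of 0.08 against -0.01 over all tested probe sets, and Lyz2 stood at 0.26 (SE 0.22, adjusted p = 1), opposite to its 20 min value. All members share the same arrays, so their signs at 30 min are not independent. After quantile normalization the 30 min difference of Lpl went from 0.18 to -0.005 and that of Cd9 from 0.03 to -0.02. That of Apoe went from 0.055 to 0.054. None of these differences passed limma's adjusted test in either fit.

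Time was tested with both treatments averaged and within each. Between 10 and 30 min 0 of 36 members passed with both treatments, with LPS alone or with LPS plus IL-10, where 0.059%, 0.0184% and 0.0443% of tested probe sets did, and 0 passed between 10 and 20 min, where 0.0221% did. A test of whether the IL-10 difference itself changed between 10 and 30 min passed in 0 members, against 0.00369% of tested probe sets. With the block the counts over the members were 0 in each of these 5 comparisons, and the tested probe sets gave 0.435%, 0.111%, 0.225%, 0.059% and 0.0184% in the same order. Unadjusted p-values under 0.05 were found in 0 members in each comparison without the block, and with it in 1 (Lamp2) from 10 to 30 min with both treatments and in 4 (Cd9, Apoe, Lgmn and Trem2) from 10 to 20 min. These are 2.78% and 11.1% of the members, beside 7.16% and 8.31% of all tested probe sets.

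Lamp2, a lysosomal membrane glycoprotein also needed for autophagy, had the largest positive difference from 10 to 30 min. Its 6 arrays at 10 min had signals of 8812, 10983 and 10526.5 with LPS and 8232, 10346 and 9231 with IL-10 added. At 30 min these were 11259, 11073 and 11511, and 11326, 10739 and 10589. The later values were the higher in all 3 experiments by the mean of both treatments, with experiment 1 the farthest, but the groups overlapped. The difference was 0.20 (SE 0.10; adjusted p = 1 without the block and 0.594 with it, limma), and 0.10 without experiment 1. At the other end stood Ctsb, the gene of the cysteine protease cathepsin B, at -0.18 (SE 0.13). With the block, 95% intervals of the change from 10 to 30 min stayed within 0.5 of 0 for 36 of 36 members.

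Several arrays held many of the members' extremes. The LPS array of experiment 1 at 10 min had the lowest of 18 values for 10 of 36 members. Over all tested probe sets that array was the lowest for 4.81%. The LPS plus IL-10 array of experiment 2 at 10 min had the highest value for 11 members, beside 4.77% of all tested probe sets. The LPS array of experiment 3 at 20 min had the lowest of 18 values for 7 of 36 members (Itgam, Sirpa, Fcgr3, Trem2, Axl, Cd9 and Lgmn) and the highest for 9 (Csf1r, Maf, Tyrobp, Lpl, Lyz2, Mpeg1, Ctsb, Ctsl and Ctss). Over all tested probe sets it was the lowest array for 13.8% and the highest for 17.1%. Cd9, a tetraspanin, read 5020.5 there and 5099.9 on its IL-10 partner, against 9540.5 to 10455 on the other 4 arrays of experiment 3. Lgmn, which encodes the asparaginyl endopeptidase legumain, read 8388 and 9857 at 20 min in that experiment and 13488 to 16596 otherwise. Both 20 min cultures of experiment 3 thus lay below the other 4, with or without IL-10. On the LPS array of that time Csf1r read 43021 and Lyz2 57749.7, and its Actb 3′ to 5′ ratio of 1.34 was the highest of the 18. The part of that array's overall signal distribution in these values was not tested. Without the 2 arrays that stood apart, the blocked change of Cd9 from 10 to 20 min went from -0.38 to -0.26 and that of Lgmn from -0.28 to -0.11, neither called by limma, with 1 LPS array left at 20 min.

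**Figure D2:**
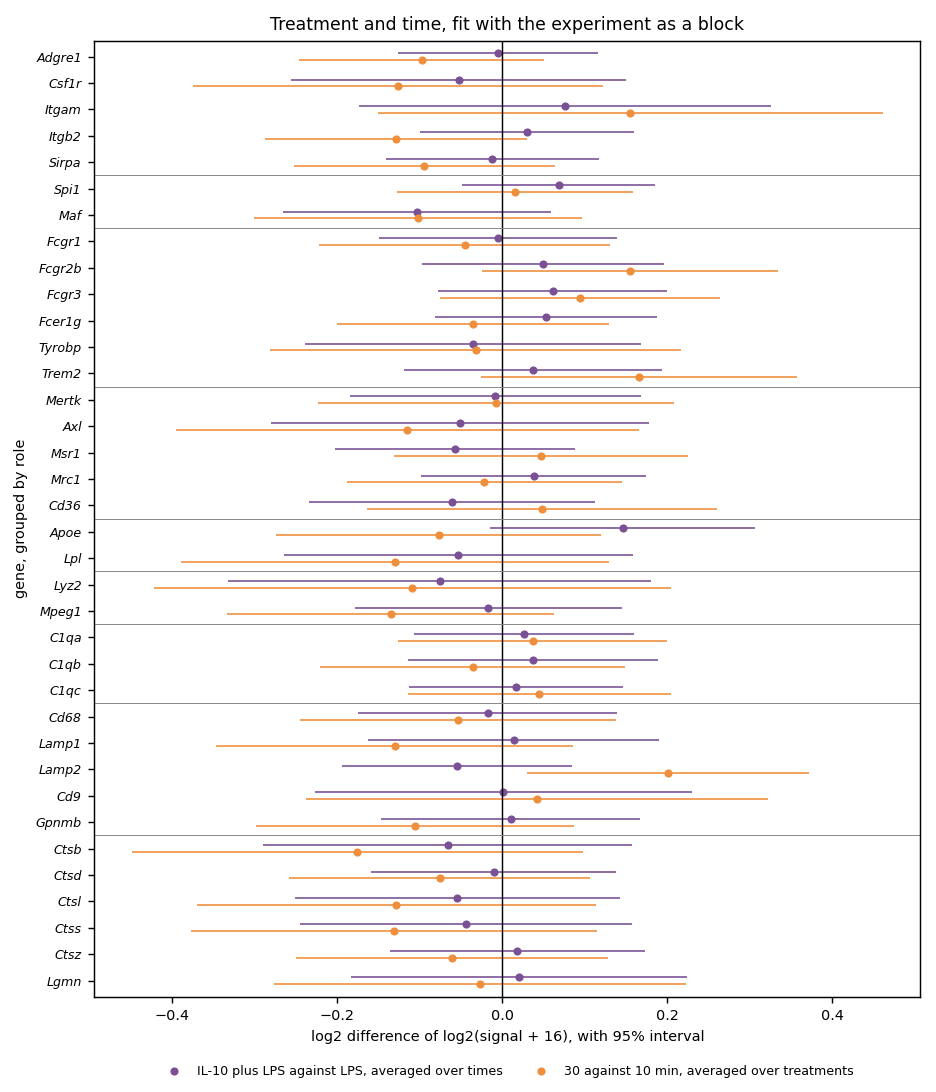
Log2 differences of the 36 members with 95% intervals, from the fit with the experiment as a block. Purple is IL-10 plus LPS against LPS averaged over 10, 20 and 30 min, and orange is 30 against 10 min averaged over treatments. All intervals lie within 0.5 of 0, and no member passed the adjusted test.

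The experiments were compared with a limma fit that holds the group constant, so each value sets 6 arrays of 1 experiment against the 6 of another. Each experiment is 1 set of cultures, so these p-values measure the spread between arrays and compare these 3 experiments only. Experiment 2 against 1 called 19 of 36 members (52.8%), 17 higher and 2 lower, where 35.8% of tested probe sets were called, 18.5% higher and 17.3% lower. Experiment 3 against 1 called 19, with 13 higher and 6 lower, against 44.3% of tested probe sets (22.9% higher, 21.4% lower). Experiment 3 against 2 called 15 (41.7%), with 3 higher and 12 lower, against 24.1% (11.8% higher, 12.3% lower). These comparisons share arrays, so their counts are not independent. With the arrays of 10, 20 or 30 min left out in turn, 34 of the 53 calls were kept each time and 19 were lost at least once. In experiment 2 against 1 the 7 lost were those of Cd9, Fcgr3, Gpnmb, Lamp1, Lgmn, Sirpa and Tyrobp, and in experiment 3 against 1 the 5 lost were those of Axl, Cd36, Mrc1, Msr1 and Tyrobp. In experiment 3 against 2 the 7 lost were those of Adgre1, C1qb, C1qc, Ctsd, Ctsz, Fcer1g and Gpnmb. The members' median log2 differences were 0.20, 0.03 and -0.19 in the same order, and those of all tested probe sets 0.07, 0.08 and 0.01.

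All 6 arrays of 1 experiment lay beyond all 6 of the other for 16 members (44.4%) between experiments 2 and 1, for 13 (36.1%) between 3 and 1, and for 6 (16.7%) between 3 and 2. Over all tested probe sets the shares were 20.7%, 25.9% and 12.4%. Of 53 called differences 46 had 1 sign in all 6 groups, but the calls were made on the same arrays, which favours a common sign. The mean log2 signal over the 36 members was 13.31 ± 0.08 in experiment 1, 13.71 ± 0.09 in experiment 2 and 13.50 ± 0.11 in experiment 3 (SD, n = 6 arrays), while the 6 treatment and time groups averaged between 13.42 and 13.55.

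**Figure D3:**
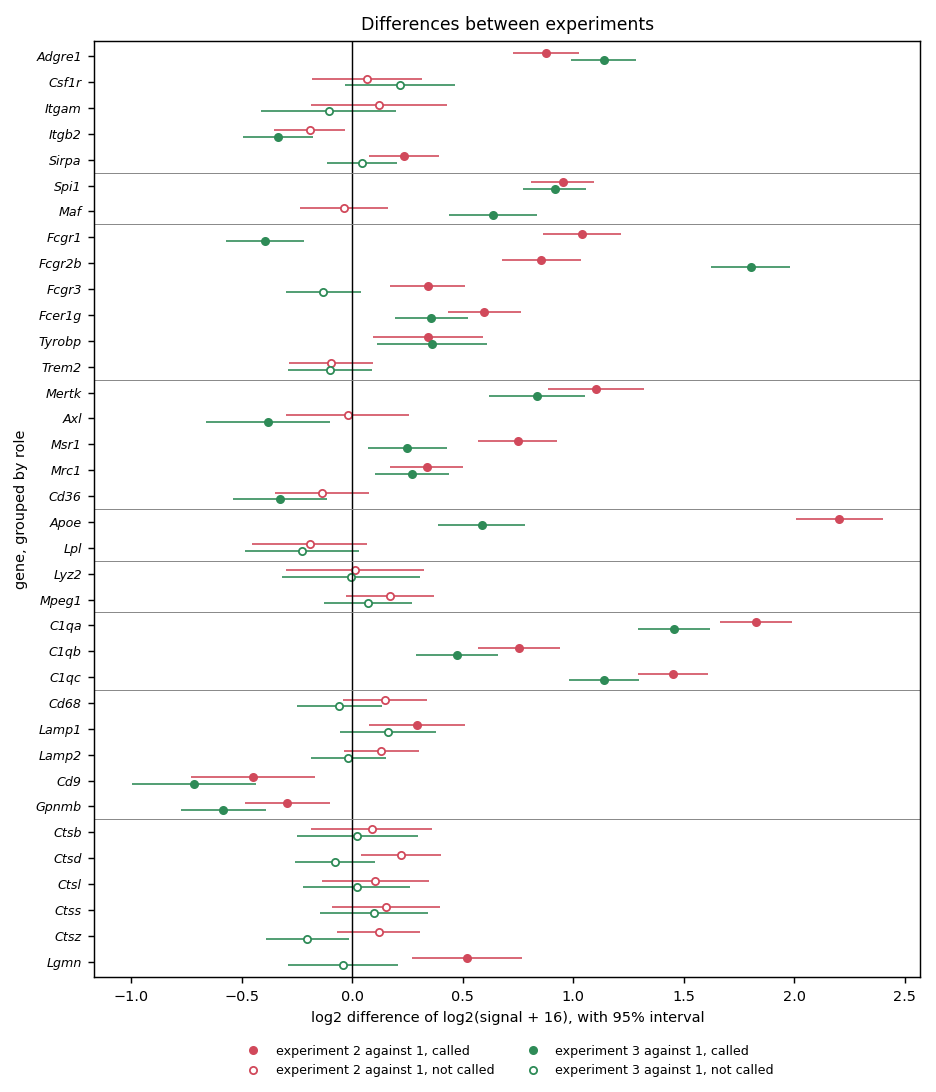
Log2 differences of the 36 members between experiments, with 95% intervals. Red is experiment 2 against 1 and green is experiment 3 against 1, with filled points for adjusted p under 0.05. C1qa, C1qc, Adgre1, Spi1 and Mertk are higher than in experiment 1 on both, Apoe is farthest right in experiment 2 (2.20) and Fcgr2b in experiment 3 (1.80), and Cd9 and Gpnmb lie to the left.

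Of the lineage receptors and adhesion molecules, Adgre1 alone differed by more than 0.5 on the log2 scale by its brightest probe set. Of 5 tested, 2 higher and 0 lower passed in experiment 2 against 1, 1 higher and 1 lower in experiment 3 against 1 and 1 higher and 0 lower in experiment 3 against 2. Adgre1 signals ran from 9900.1 to 11038 (median 10599) in experiment 1, from 17609 to 21568 (median 19459.6) in experiment 2 and from 21302 to 26042 (median 22932) in experiment 3. Adgre1, which encodes the surface protein F4/80 that marks mouse macrophages, was higher in experiment 2 than 1 by 0.88 (SE 0.07, adjusted p = 3.18e-08) and in experiment 3 by 1.14 (SE 0.07, adjusted p = 7.94e-10), in 6 of 6 groups each, with no overlap with experiment 1. Experiments 2 and 3 overlapped and differed by 0.26 in experiment 3 against 2 (SE 0.07, adjusted p = 0.0114), a call lost without the 10 or the 30 min arrays. Csf1r signals ran from 19736 to 26627 (median 23229) in experiment 1, from 22483 to 27815 (median 23971) in experiment 2 and from 21278 to 43021 (median 24170.4) in experiment 3. Csf1r, the CSF-1 receptor, passed in no comparison by its brightest probe set, and its 3 experiments overlapped. The interval of experiment 3 against 1 reached from -0.03 to 0.46. Itgam signals ran from 2745 to 3381.5 (median 2835) in experiment 1, from 2443 to 4045.5 (median 3319) in experiment 2 and from 1533 to 3675 (median 3015) in experiment 3. Itgam, the alpha chain of complement receptor 3 (CD11b), passed in none either. Its partner chain Itgb2 (CD18) was lower in experiment 3 than 1, at 12375 ± 716 against 15667 ± 1406 (SD, n = 6 arrays), a log2 difference of -0.34 (SE 0.08, limma adjusted p = 0.0014). Sirpa, the inhibitory receptor for the CD47 signal on healthy cells, differed by 0.23 (SE 0.08, adjusted p = 0.0216) between experiments 2 and 1, and its other probe sets had the opposite sign.

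Both lineage transcription factors differed between experiments. Spi1 signals ran from 3540.4 to 4189.5 (median 4053) in experiment 1, from 7089.8 to 8090.4 (median 7739) in experiment 2 and from 6638 to 7998 (median 7649.9) in experiment 3. Spi1, the gene of PU.1, was 0.95 (SE 0.07, adjusted p = 7.1e-09) higher on the log2 scale in experiment 2 than 1 and 0.92 (SE 0.07, adjusted p = 7.76e-09) higher in experiment 3 by limma, with no overlap. Experiments 3 and 2 differed by -0.04 (SE 0.07) and did not pass. Maf signals ran from 6449 to 7322 (median 7031) in experiment 1, from 6407 to 7819.8 (median 6613) in experiment 2 and from 9031 to 15029.6 (median 10534) in experiment 3. Maf, which encodes the c-Maf factor of mature macrophages, was instead highest in experiment 3, by 0.63 (SE 0.09, adjusted p = 2.87e-05) over experiment 1 and 0.67 (SE 0.09, adjusted p = 3.41e-05) over experiment 2, while experiments 2 and 1 overlapped (-0.04, SE 0.09).

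Fc receptor genes, whose products bind the constant part of antibodies, did not differ as a block. Of 6 tested Fc receptor and adaptor genes, 5 higher and 0 lower passed in experiment 2 against 1, 3 higher and 1 lower in experiment 3 against 1 and 1 higher and 3 lower in experiment 3 against 2. Fcgr2b signals ran from 1236 to 1543 (median 1357) in experiment 1, from 2108 to 2961 (median 2469.7) in experiment 2 and from 4139.7 to 5457 (median 4913) in experiment 3. Fcgr2b, the inhibitory receptor, was lowest in experiment 1 and highest in experiment 3 with no overlap between any of them, and differed by 0.85 (SE 0.09, adjusted p = 4.47e-07), 1.80 (SE 0.09, adjusted p = 2.28e-11) and 0.95 (SE 0.09, adjusted p = 1.66e-07) in experiments 2 against 1, 3 against 1 and 3 against 2. Fcgr1 signals ran from 5074 to 5933 (median 5409.7) in experiment 1, from 8397 to 13453 (median 11593) in experiment 2 and from 3754 to 4343 (median 4251) in experiment 3. Fcgr1, the high-affinity activating receptor, was highest in experiment 2 and lowest in experiment 3, with differences of 1.04 (SE 0.08, adjusted p = 3.18e-08), -0.39 (SE 0.08, adjusted p = 0.000934) and -1.43 (SE 0.08, adjusted p = 6.5e-10) in the same order. By the brightest probe set, each receptor's experiments were apart on all arrays, with experiment 3 at the top for Fcgr2b and at the bottom for Fcgr1. The other Fcgr1 probe set gave -0.11 in experiment 3 against 1 and was not called. It was called at 1.01 in experiment 2 against 1 and at -1.12 in experiment 3 against 2. With the LPS plus IL-10 arrays alone, the brightest Fcgr1 probe set was not called in experiment 3 against 1. Fcgr3 signals ran from 7665 to 8797 (median 8135) in experiment 1, from 8653.5 to 11417 (median 10593) in experiment 2 and from 5705 to 9072 (median 7626) in experiment 3. Fcgr3, a low-affinity activating receptor, was 0.34 (SE 0.08, adjusted p = 0.0029) higher in experiment 2 than 1, a call lost without the 10 or the 30 min arrays, and its difference in experiment 3 against 2 was -0.47 (SE 0.08, adjusted p = 0.000253) by limma. Fcgr4, the activating receptor whose gene lies between Fcgr2b and Fcgr3 on chromosome 1 and which is no member, went from 580.3 ± 52 in experiment 1 to 1435 ± 137 in experiment 2 and 617 ± 122 in experiment 3, with 1.28 (adjusted p = 1.42e-07) and -1.22 (adjusted p = 3.4e-07) for experiments 2 against 1 and 3 against 2.

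The adaptors that carry receptor signals through ITAM motifs had smaller differences than Fcgr2b and Fcgr1. Fcer1g signals ran from 13743 to 17194.5 (median 15915) in experiment 1, from 22609 to 27514.5 (median 23451) in experiment 2 and from 18443 to 22712 (median 19964) in experiment 3. Fcer1g, the common gamma chain that activating Fc receptors need, was 0.60 (SE 0.08, adjusted p = 1.06e-05) higher in experiment 2 than 1 and 0.36 (SE 0.08, adjusted p = 0.00117) higher in experiment 3, both without overlap with experiment 1. Tyrobp signals ran from 18375 to 22255 (median 21602) in experiment 1, from 22866.5 to 32551 (median 27042) in experiment 2 and from 22174 to 39440.5 (median 25823) in experiment 3. Tyrobp, which encodes the DAP12 adaptor, passed against experiment 1 in experiments 2 (0.34, SE 0.12, adjusted p = 0.0312) and 3 (0.36, SE 0.12, adjusted p = 0.019), with 0.23 and no call in experiment 2 without the 10 min arrays and in experiment 3 without the 20 min arrays. Trem2 signals ran from 7902 to 9280.4 (median 8526.5) in experiment 1, from 6972 to 9236.5 (median 8126) in experiment 2 and from 5507 to 9995 (median 8562) in experiment 3. Trem2, a lipid-sensing receptor that signals through DAP12, passed in none of the 3 comparisons, and its experiments overlapped.

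Receptors for dying cells and modified lipoproteins gave Mertk and Msr1 as the largest differences. Of 5 tested, 3 higher and 0 lower passed in experiment 2 against 1, 3 higher and 2 lower in experiment 3 against 1 and 0 higher and 1 lower in experiment 3 against 2. Mertk signals ran from 360.3 to 549.7 (median 462) in experiment 1, from 872 to 1183 (median 974) in experiment 2 and from 742 to 1035 (median 781) in experiment 3. Mertk, a receptor tyrosine kinase for apoptotic cells, had its lowest value in experiments 2 and 3 above its highest in experiment 1, and was 1.10 (SE 0.10, adjusted p = 1.9e-07) and 0.84 (SE 0.10, adjusted p = 3.31e-06) higher there by limma. Axl signals ran from 354 to 512 (median 430.5) in experiment 1, from 371 to 471 (median 427) in experiment 2 and from 245 to 425 (median 334) in experiment 3. Axl, its relative, did not follow, with -0.02 (SE 0.13) in experiment 2 and -0.38 (SE 0.13, adjusted p = 0.027) in experiment 3 against 1, and the latter was not called without the LPS 20 min arrays that stood apart (-0.27) or without all 20 min arrays (-0.18). Msr1 signals ran from 6117 to 7331 (median 6854) in experiment 1, from 9462 to 12314 (median 11836) in experiment 2 and from 6484 to 9300.1 (median 8615.5) in experiment 3. Msr1, the scavenger receptor A gene, was 0.75 (SE 0.08, adjusted p = 2.06e-06) higher in experiment 2 than 1, and 0.25 (SE 0.08, adjusted p = 0.0229) in experiment 3, where it was 0.16 and not called without the 10 min arrays, 0.40 and called without the 20 min arrays, and 0.01 when its probe sets were averaged. Mrc1, the mannose receptor, differed by 0.34 (SE 0.08) and 0.27 (SE 0.08) in experiments 2 and 3 against 1, both called and both higher in 5 of 6 groups. Cd36 signals ran from 19647 to 21853 (median 21231) in experiment 1, from 17396 to 20360.2 (median 19206.5) in experiment 2 and from 11936 to 21485 (median 17290.2) in experiment 3. Cd36, a scavenger receptor for oxidised lipids, was lower in experiment 3 than 1 by limma (-0.33, SE 0.10, adjusted p = 0.0134), a difference of -0.14 and no call without the 20 min arrays.

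**Figure D4:**
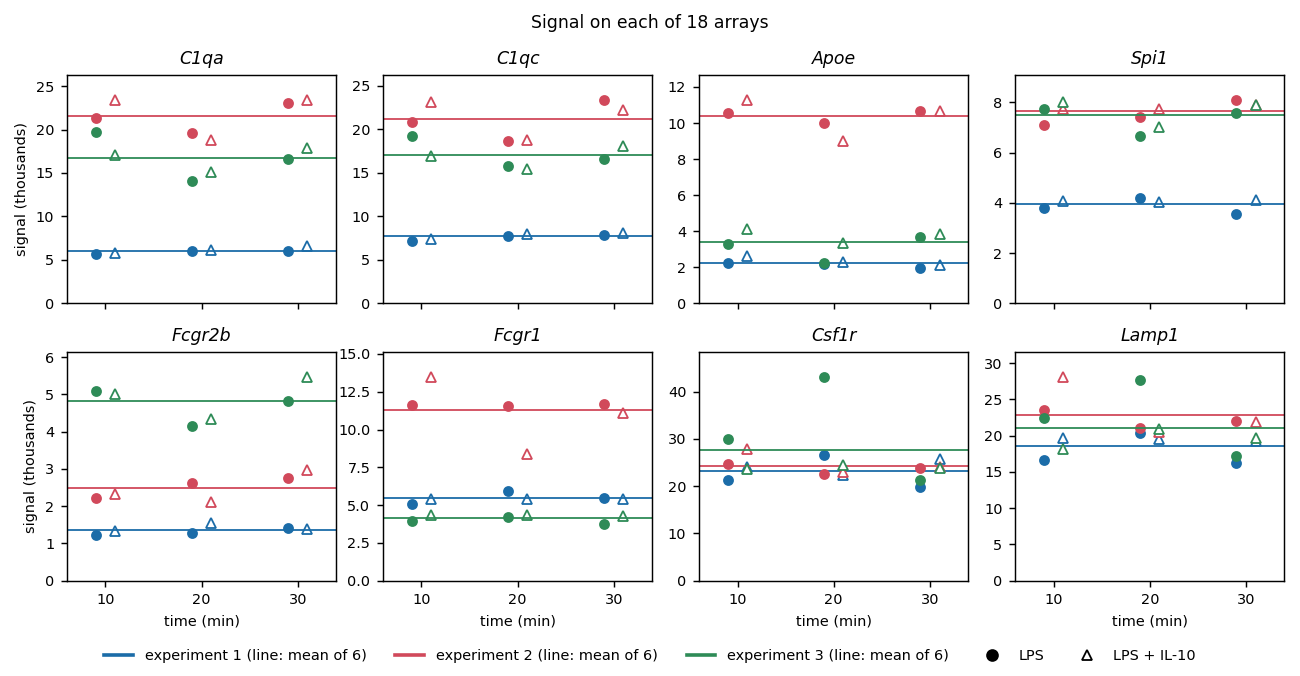
Signal (linear axis from 0, with the scale given on it) of 8 members on each of the 18 arrays against time in min. Colour is the experiment, filled circles are LPS, open triangles are LPS plus IL-10, and lines are the means of 6 arrays. For C1qa, C1qc, Spi1 and Fcgr2b the experiment 1 arrays lie below all others at every time, Fcgr1 and Apoe are highest in experiment 2, and Csf1r overlaps except for 1 LPS array of experiment 3 at 20 min (43021).

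The secreted lipid handlers gave the member with the largest difference and 1 with none called. Apoe signals ran from 1986 to 2628 (median 2203) in experiment 1, from 9030.1 to 11278 (median 10615) in experiment 2 and from 2262 to 4142 (median 3504) in experiment 3. Apoe, which encodes the apolipoprotein that carries cholesterol out of macrophages, was 4.6-fold higher in experiment 2 than 1 (2.20, SE 0.09, adjusted p = 1.42e-11, limma), 6 of 6 groups higher, and its 6 arrays there lay above all 12 others. Experiment 3 differed from 1 by 0.59 (SE 0.09, adjusted p = 6.06e-05) and from 2 by -1.62 (SE 0.09, adjusted p = 5.8e-10). Lpl signals ran from 29750.3 to 40138 (median 35435) in experiment 1, from 24262.5 to 38602 (median 30121) in experiment 2 and from 23886 to 45862 (median 27032) in experiment 3. Lpl passed in none of the 3 comparisons by its brightest probe set, although after quantile normalization it was called against experiment 1 in experiments 2 and 3. Neither antimicrobial gene was called, except Mpeg1 in experiments 2 against 1 and 3 against 2 after quantile normalization. Lyz2 signals ran from 27051 to 41182 (median 32582) in experiment 1, from 26589 to 41190.5 (median 33376) in experiment 2 and from 23898 to 57749.7 (median 28969.7) in experiment 3. Mpeg1, the gene of the pore-forming perforin-2, averaged 22122 ± 2100.2, 24909.8 ± 2219 and 23410.0 ± 4088 (SD, n = 6 arrays) in experiments 1, 2 and 3. Between experiments 3 and 1 the 95% interval ran from -0.32 to 0.31 for Lyz2 and from -0.13 to 0.27 for Mpeg1.

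The 3 chains of C1q, the complement protein that opens the classical pathway and tags debris for uptake, differed together. C1qa signals ran from 5714 to 6588.5 (median 6075) in experiment 1, from 18753 to 23401 (median 22148) in experiment 2 and from 14106 to 19744 (median 16827) in experiment 3. C1qb signals ran from 13502 to 16297 (median 15348) in experiment 1, from 21980.5 to 31090.2 (median 25716) in experiment 2 and from 18722 to 25586 (median 20450.3) in experiment 3. C1qc signals ran from 7188 to 8136 (median 7791) in experiment 1, from 18699.6 to 23369 (median 21504) in experiment 2 and from 15485 to 19186 (median 16774) in experiment 3. Every chain was low in experiment 1, whose 6 arrays lay below the 12 of experiments 2 and 3. C1qa was 3.54-fold higher in experiment 2 than 1 (1.82, SE 0.08, adjusted p = 1.42e-11) and 2.74-fold in experiment 3 (1.46, SE 0.08, adjusted p = 1.13e-10). C1qc was 2.73-fold (1.45, SE 0.08, adjusted p = 1.5e-10) and 2.2-fold (1.14, SE 0.08, adjusted p = 1.8e-09) higher, and C1qb 1.69-fold (0.76, SE 0.09, adjusted p = 2.82e-06) and 1.39-fold (0.47, SE 0.09, adjusted p = 0.000267). All 3 were lower in experiment 3 than 2, by limma at -0.37 (adjusted p = 0.00171), -0.28 (adjusted p = 0.0254) and -0.31 (adjusted p = 0.00508) for C1qa, C1qb and C1qc. The C1qb difference between experiments 3 and 2 kept its call under 7 of 15 other settings, and that of C1qc was lost without the 30 min arrays. The genes are neighbours on chromosome 4, in the order C1qb, C1qc, C1qa with no coding gene between them. Of the C1qb and C1qc windows printed above, GAGGAAGT was in the C1qc one alone, and both genes were higher in experiments 2 and 3 than in 1.

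Of lysosomal membrane proteins and tetraspanins, Cd9 and Gpnmb were lower in experiments 2 and 3 than in 1. Of 5 tested, 1 higher and 2 lower passed in experiment 2 against 1, 0 higher and 2 lower in experiment 3 against 1 and 0 higher and 1 lower in experiment 3 against 2. Lamp1 signals ran from 16209 to 20370.2 (median 19399) in experiment 1, from 20452 to 28044 (median 22009) in experiment 2 and from 17217.5 to 27690.5 (median 20283) in experiment 3. Lamp1, an abundant lysosomal membrane glycoprotein, was 0.29 (SE 0.10, adjusted p = 0.0336) higher in experiment 2 than 1, a call that 9 of 15 other settings kept and that was lost at 0.19 without the 10 min arrays, and did not pass in the other comparisons. Lamp2 averaged 9926 ± 1254, 10814 ± 396 and 9808 ± 1268 in experiments 1, 2 and 3 and Cd68, a late-endosomal protein used to stain macrophages, 21949.6 ± 2721, 24224 ± 1638 and 21098 ± 2788 (SD, n = 6 arrays), and neither passed by its brightest probe set. Another Lamp2 probe set was called at -0.26 in experiment 2 against 1 and -0.33 in experiment 3 against 1. Cd68 and Lamp1 were called in experiment 3 against 2 after quantile normalization. Cd9 signals ran from 12395.5 to 14068 (median 13044) in experiment 1, from 7644 to 10678 (median 10086) in experiment 2 and from 5020.5 to 10455 (median 9665) in experiment 3. Gpnmb signals ran from 22222 to 30216 (median 25858) in experiment 1, from 19196 to 23278 (median 21013) in experiment 2 and from 13995 to 19529.8 (median 17478) in experiment 3. Cd9 differed from experiment 1 by -0.45 (SE 0.13, adjusted p = 0.0135) and -0.72 (SE 0.13, adjusted p = 0.000272) in experiments 2 and 3, and Gpnmb, a transmembrane glycoprotein induced in lipid-laden macrophages, by -0.29 (SE 0.09, adjusted p = 0.0182) and -0.58 (SE 0.09, adjusted p = 5.01e-05), each lower in 6 of 6 groups. Against experiment 1 in experiment 2, the Cd9 call was lost without the 10 min arrays and the Gpnmb call without the 30 min arrays. In experiment 3 the Cd9 difference was -0.40 and still called without the 20 min arrays.

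Among the lysosomal proteases, only Lgmn passed between experiments 2 and 1 by its brightest probe set. Of 6 tested, 1 higher and 0 lower passed in experiment 2 against 1, 0 higher and 0 lower in experiment 3 against 1 and 0 higher and 3 lower in experiment 3 against 2. Lgmn signals ran from 12099.7 to 13779 (median 13284) in experiment 1, from 17117.5 to 21092 (median 18855) in experiment 2 and from 8388 to 16596 (median 13898) in experiment 3. Lgmn was 0.52 (SE 0.12, adjusted p = 0.00223) higher in experiment 2 than 1, a call lost without the 10 min arrays, and differed by -0.56 (SE 0.12, adjusted p = 0.00175) in experiment 3 against 2, and its experiment 2 arrays lay above the 12 others. Ctsb signals ran from 28147 to 38714 (median 34986) in experiment 1, from 29165 to 45191 (median 35816) in experiment 2 and from 28019.5 to 48160.1 (median 30522) in experiment 3. Ctsb, Ctsl and Ctss, cysteine cathepsins, passed in none of the comparisons by their brightest probe sets, with ranges of the 3 experiment means of 0.09, 0.10 and 0.15 on the log2 scale. After quantile normalization Ctss and Ctsd were called in experiment 2 against 1, Ctsz in experiment 3 against 1 and Ctsl in experiment 3 against 2. The other Ctsl probe set was called at 0.84 in experiment 2 against 1 and -0.66 in experiment 3 against 2. All 4 other Ctsb probe sets were called in experiment 3 against 1, at -0.29, -0.32, -0.44 and 0.82. In experiment 2 against 1 a pair of these was called, at 0.23 and 0.85, and in experiment 3 against 2 a pair at -0.45 and -0.67. Ctsd, the aspartic cathepsin, and Ctsz, a cysteine carboxypeptidase, differed in experiment 3 against 2 by -0.30 (SE 0.09, adjusted p = 0.0167) and -0.32 (SE 0.09, adjusted p = 0.0131) in limma, and both calls were lost without the 30 min arrays. The 4 members with the E-box core, Lamp1, Ctsd, Ctsl and Lgmn, had differences of 0.29, 0.22, 0.10 and 0.52 in experiment 2 against 1, of which those of Lamp1 and Lgmn passed. In that comparison 28 of 36 members lay above 0, with a median of 0.20. Of the members 52.8% were called, beside 35.8% of all tested probe sets. In experiment 3 against 2 all 4 were lower, with Ctsd and Lgmn called, and in experiment 3 against 1 none of the 4 passed. A part of the motif in these differences was not tested.

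Brightness differed between members that passed and those that did not. Of the 15 members with a mean signal above 20000, 8 passed in no experiment comparison, against 3 of the 21 dimmer ones. Over all tested probe sets 22.8% of the 254 above 20000 passed in at least 1, against 57% of the rest, and the median of their largest absolute difference was 0.17 against 0.51 on the log2 scale. The 20000 split was chosen after the values were seen. The part of brightness in the few calls among the cathepsins, Lyz2, Lpl and Csf1r was not tested.

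Several genes had further, dimmer probe sets with other values. Of 15 members with several tested probe sets, all sets had 1 sign in 10, 8 and 13 in experiments 2 against 1, 3 against 1 and 3 against 2. Of their 33 further probe sets, 23, 25 and 21 had the larger absolute difference. Another probe set was called in 8 of the 9 genes whose brightest was not in experiment 2 against 1 (Csf1r, Maf, Cd36, Lpl, Lamp2, Ctsb, Ctsl and Ctsz). In experiment 3 against 1 this held for 6 of 8 (Csf1r, Sirpa, Lpl, Lamp2, Ctsb and Ctsz), and in experiment 3 against 2 for 4 of 8 (Csf1r, Lpl, Ctsb and Ctsl). The brightest alone was called for Gpnmb in experiment 2 against 1, for Fcgr1 and Msr1 in experiment 3 against 1 and for C1qb in experiment 3 against 2. Csf1r, at 0.07 and 0.21 by its brightest, was called higher in experiments 2 and 3 than 1 by both others, at 0.27 and 0.53, and at 0.34 and 0.64. For Lpl the second probe set gave -0.40 and -0.98, both called. In these genes the signs were alike and the sizes differed. Sirpa had no common sign: its brightest probe set gave 0.23 and 0.04, and the others -0.84 and -1.24, and -1.72 and -2.29, all 4 called lower. Maf had 1 dim probe set at -1.47 in experiment 3 against 1, where its 5 others ran from 0.51 to 1.57. By contrast, the 4 tested probe sets of Fcgr2b lay between 1.80 and 2.12 in that comparison and the 3 of C1qb between 0.47 and 0.76, all called. No further probe set of a member was called for treatment or time in either limma fit.

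**Figure D5:**
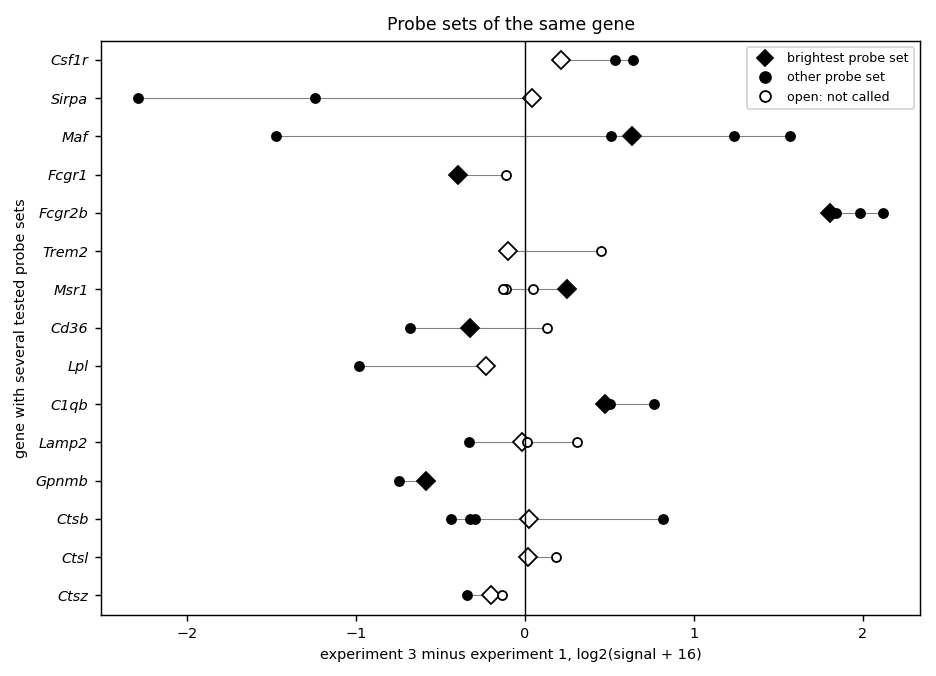
Log2 difference of experiment 3 against 1 for every tested probe set of the 15 members with several. Diamonds are the brightest probe set, circles the others, filled where adjusted p was under 0.05. The Fcgr2b and C1qb sets lie close together on the right, and Sirpa (to -2.29) and 1 set of Maf (-1.47) lie far from the brightest.

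Related genes outside the set were not called for treatment or time either. Of lists of other lysosomal hydrolases (21 tested of 24), lysosomal membrane, proton pump and regulators (19 of 20), other phagocytic receptors and their signalling (22 of 25) and other myeloid transcription factors (8 of 10), 0 genes passed in any of the 9 treatment and time comparisons, with or without the block. At most 0.435% of all tested probe sets passed in any of these fits. Between experiments 2 and 1, 11 hydrolases were higher and 2 lower, 8 and 1 of the membrane and pump genes, 13 and 1 of the phagocytic genes and 4 and 2 of the transcription factors. Of all tested probe sets 18.5% were called higher and 17.3% lower there. In experiment 3 against 1 the counts were 5 and 5, 4 and 7, 10 and 3, and 2 and 3, beside 22.9% higher and 21.4% lower of all tested probe sets. In experiment 3 against 2 they were 1 and 9, 2 and 11, 5 and 9, and 1 and 4, beside 11.8% and 12.3%. Of 7 tested housekeeping genes, 0 were higher and 1 lower, 2 and 1, and 1 and 0 in the 3 comparisons. The list medians were 0.22, 0.18, 0.27 and 0.37 in experiment 2 against 1, beside 0.07 for all tested probe sets.

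Cebpa, the factor that acts with PU.1 in myeloid commitment, went from 645 ± 75.7 in experiment 1 to 2733 ± 479 in experiment 2 and 746 ± 146 in experiment 3 (SD, n = 6 arrays), and its difference in experiment 2 against 1 was 2.05 (adjusted p = 3.2e-10) by limma. Itgb5, a chain of an integrin for apoptotic cells, was 1.67 (adjusted p = 2.61e-11) higher in experiment 2 than 1 and Gas6, the bridge that joins dying cells to Mertk and Axl, 1.12 (adjusted p = 2.28e-07). Marco, a scavenger receptor for bacteria, went from 289.6 ± 55 in experiment 1 to 873 ± 172 in experiment 2 and 1376 ± 188 in experiment 3, and Clec7a, the beta-glucan receptor Dectin-1, differed by 1.57 (adjusted p = 1.54e-10) in experiment 3 against 1. Nr1h3, which encodes the sterol-sensing nuclear receptor LXR-alpha, was 1.22 (adjusted p = 9.95e-06) and 0.99 (adjusted p = 6.23e-05) higher in experiments 2 and 3 than 1. Cd302, a C-type lectin, was 1.43 (adjusted p = 1.02e-11) higher in experiment 3 than 1. In experiment 3 against 1, Pparg, a lipid-sensing nuclear receptor, differed by -1.65 (adjusted p = 9.68e-08), Id2, an inhibitor of helix-loop-helix factors, differed by -1.64 (adjusted p = 1.12e-09), and Npc1, the lysosomal cholesterol exporter, by -0.75 (adjusted p = 1.48e-07). Ets2, a factor downstream of CSF-1 signalling, differed by -1.66 (adjusted p = 1.94e-11) in experiment 2 against 1.

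Markers of other cells also differed between the experiments. The summed signal of the 10 granulocyte genes ran from 8393 to 9871 in experiment 1, from 13961 to 15873 in experiment 2 and from 7525 to 10827 in experiment 3. The 6 tested stromal genes gave 5 higher and 0 lower in experiment 2 against 1 and 5 and 0 in experiment 3 against 1. Of all tested probe sets 18.5% were called higher and 17.3% lower in the first comparison, and 22.9% and 21.4% in the second. The stromal list's sums ran from 2069 to 3034, 3483 to 5274 and 3051 to 4052. Dendritic cell genes, whose sum is mostly Cd74 and H2-Aa of the MHC class II pathway, summed to 4834 to 5356, 3437 to 4067 and 2368 to 2748. Monocyte genes summed to 2180.3 to 2677, 756 to 1124 and 1398 to 1910.4, and osteoclast genes to 521 to 616, 1429 to 1685 and 1321 to 1818. T cell genes summed to 61.7 to 176, 188 to 363 and 166 to 344, B cell genes to 266 to 357, 258 to 568 and 349 to 588, erythroid genes to 91.2 to 256, 168 to 406 and 79.0 to 169 and mast cell genes to 121 to 235, 102 to 212 and 99.7 to 134. Experiment 1, with the lowest C1q, Spi1 and Mertk, thus had the highest monocyte and dendritic sums and the lowest stromal and osteoclast sums. Its T cell sums lay below those of experiment 2 and overlapped those of experiment 3. Of the 5 T cell genes with a probe set, 3 were below the array median on all 18 arrays. Lower quartiles of signal were 21.8 to 23.2 in experiment 1, 22.9 to 38.6 in experiment 2 and 23 to 34 in experiment 3. Such dim T cell sums cannot be told from background. Granulocyte sums instead set experiment 2 apart, while experiments 1 and 3 overlapped. The monocyte sum rests on 2 of 4 listed genes. The part of cell composition in the differences between experiments was not tested, and by treatment the sums overlapped in every list, as for granulocyte genes with 7653 to 15857 with LPS and 7525 to 15873 with IL-10 added.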

How the data were processed

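RNA of 18 cultures was hybridised to Affymetrix arrays, 1 array each. The deposited values are linear intensities, and the submitters' processing notes name GCOS 1.4. Which signal algorithm the authors ran was not given in the sources used here. No detection calls were used, so a dim signal cannot be told from background.

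Groups came from the labels, and 0 columns were left out. Gene names are those of the platform annotation, in which 34958 probe sets carried 1 symbol, 932 several and 9211 none. The fits used log2(signal + 16), which shrinks the differences of dim probe sets. Probe sets at or above the array median on at least 3 arrays were fitted with limma 3.58.1 in R 4.3.3 (lmFit, eBayes with trend; tested on simulated data), two-sided, with Benjamini-Hochberg adjustment over 27110 probe sets. Treatment and time used 1 coefficient per group (12 residual degrees of freedom), with the experiment as a block as an alternative (10). Experiments were compared by an additive group and experiment fit (10). The 12 comparisons were repeated under other normalizations, pseudocounts, filters and array sets.

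The labels call each replicate number an independent experiment. Deviations from group means correlated at r = 0.20 to 0.64 over 45 same-numbered pairs and at -0.47 to 0.07 over 90 others, so the numbers pair the arrays.

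The members, role lists, related lysosomal, phagocytic and transcription factor lists and marker lists were chosen with earlier results of these data known. Values by array were given for a set panel of members, the largest called differences in each direction and the widest and narrowest range of experiment means in each role.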

Additional observations from a re-analysis of the deposited data

Results flagged for a closer look

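Each member's signals were searched for 1 array far from the other 5 of its experiment, by Dixon's gap ratio. Of 108 groups of 6 arrays 3 passed, and chance alone flags about 1 group in 20. Maf, the c-Maf gene, read 7819.8 on the LPS array at 10 min of experiment 2, where the next highest array was at 6793. Tyrobp, the DAP12 gene, read 18374.7 on the LPS array at 10 min of experiment 1, below the next lowest at 20783. Msr1, the scavenger receptor A gene, read 9461.7 on the LPS plus IL-10 array at 20 min of experiment 2, below the next lowest at 11458.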

How the results depend on the processing

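In the 9 treatment and time comparisons 0 members were called with the replicate block, 0 without it, and 0 in any of 153 alternative fits, those without 1 replicate included (range 0 to 0). Fits that joined the block with leaving out arrays or a replicate were chosen after seeing the data. Members at an unadjusted p under 0.05 reached 10 in 1 such fit, for 20 against 10 min. The share of all tested probe sets under 0.05 in that fit was not computed, so the 10 cannot be read as a trait of the members. With the block on all arrays there were 4 (11.1%), beside 8.31% of all tested probe sets. Between experiments, 15 alternatives called 11 to 28, 12 to 22 and 5 to 20 members for 2 against 1, 3 against 1 and 3 against 2, where the reported counts were 19, 19 and 15. The lowest came from the LPS arrays alone, with 11, 12 and 5, which leaves 3 arrays per experiment. After quantile normalization 35.1%, 43.1% and 25.3% of all tested probe sets were called, beside 35.8%, 44.3% and 24.1% in the reported fits. The members called there were 19 higher and 4 lower, 13 and 8, and 3 and 16. Shares of all tested probe sets under the other alternatives are not given here, so these ranges do not describe the members alone. Of the called single-gene differences, 704 alternative values kept their call and 90 lost it. Sirpa in experiment 2 against 1 reversed, to -0.78, when its probe sets were averaged, as its dimmer ones had the other sign.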
